A study of Mus musculus with 2 samples.

Results

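The apolipoprotein L (Apol) genes were examined here as a family of 10 members: Apol6, Apol7a, Apol7b, Apol7c, Apol7e, Apol8, Apol9a, Apol9b, Apol10b and Apol11b. The list was chosen on the readout itself, because Apol7c had one of the largest negative differences between the arrays, so the differences of the members are given as a description with no test. A member was taken where its symbol was the only one the platform annotation gives for a probe set, the group of probes summarised into 1 value. All 10 members were found among the 22180 genes with such a probe set, each with 1 probe set, and 0 probe sets shared a member's symbol with another gene. The study hybridised 2 Affymetrix whole-transcript mouse arrays with RNA of spleen cells from Fx-/- mice. Per the labels' protocols, cells with B220 or CD11b were removed and cells with CD11c were kept. The labels call the kept cells cDC1, conventional type 1 dendritic cells. The Fx gene (current symbol Gfus) codes for an enzyme on the route from mannose to GDP-fucose, and without it fucose has to be supplied to the animals. Per the labels, both groups carried this deletion. Gfus itself gave log2 intensities of 4.89 with fucose and 4.50 without. Whether its probes lie in the deleted part is not known here and no wild-type array was used, so these values do not check the genotype. The array called on fucose held cells of fucose-treated mice and the array called off fucose held cells of mice with no fucose treatment. The labels used here do not state strain, age, dose or the number of mice per array.

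Proteins of the apolipoprotein L family insert into membranes and can form channels there, and the best known, human APOL1, kills trypanosomes in this way. Mice have no Apol1 but carry a cluster of related genes that grew by duplication. The product of Apol7c has been described in dendritic cells, where it reaches phagosomes and ruptures them, which lets engulfed antigen into the cytosol for cross-presentation to CD8 T cells. Several family members are also induced by interferons, signalling proteins of antiviral defence.

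The results turn on genes whose start regions are close copies of each other, and these regions are shown first. RefSeq (GRCm38.p6) gave a window of 300 bases, from 250 before to 50 after the gene start, for 9 of the 10 members, and also for Apol10a and Apol11a. Apol6 was not matched. The sequences run from 5′ to 3′ on the strand of the gene, and capitals mark each match to the core of the interferon-stimulated response element (ISRE), which is GAAA and a second GAAA with any 2 bases between them, searched on both strands. Every match below lies on the opposite strand and so reads as TTTC, any pair of bases, TTTC. Apol7c (chr15:77533266-77533565, minus strand) had the largest difference of the family and 2 overlapping matches. Apol7e (chr15:77698639-77698938, plus strand) was also lower off fucose, and Apol7b (chr15:77447411-77447710, minus strand) is its near copy. Apol11b (chr15:77643237-77643536, minus strand) was higher off fucose.
Apol7c: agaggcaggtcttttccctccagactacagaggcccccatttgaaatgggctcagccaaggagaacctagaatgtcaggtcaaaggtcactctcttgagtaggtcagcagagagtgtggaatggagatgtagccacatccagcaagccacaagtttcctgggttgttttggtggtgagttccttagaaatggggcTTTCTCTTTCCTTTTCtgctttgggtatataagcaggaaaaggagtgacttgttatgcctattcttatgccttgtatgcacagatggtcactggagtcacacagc
Apol7e: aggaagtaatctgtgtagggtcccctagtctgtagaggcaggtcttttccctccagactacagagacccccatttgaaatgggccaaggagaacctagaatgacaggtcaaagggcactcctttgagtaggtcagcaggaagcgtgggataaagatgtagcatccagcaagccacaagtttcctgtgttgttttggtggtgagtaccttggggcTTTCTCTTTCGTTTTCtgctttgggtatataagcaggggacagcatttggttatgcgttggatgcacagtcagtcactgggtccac
Apol7b: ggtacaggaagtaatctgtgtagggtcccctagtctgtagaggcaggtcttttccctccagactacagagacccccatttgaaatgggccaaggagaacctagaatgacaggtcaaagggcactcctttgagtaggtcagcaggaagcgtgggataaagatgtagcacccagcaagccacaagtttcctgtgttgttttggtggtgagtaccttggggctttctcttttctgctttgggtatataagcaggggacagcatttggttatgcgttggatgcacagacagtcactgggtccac
Apol11b: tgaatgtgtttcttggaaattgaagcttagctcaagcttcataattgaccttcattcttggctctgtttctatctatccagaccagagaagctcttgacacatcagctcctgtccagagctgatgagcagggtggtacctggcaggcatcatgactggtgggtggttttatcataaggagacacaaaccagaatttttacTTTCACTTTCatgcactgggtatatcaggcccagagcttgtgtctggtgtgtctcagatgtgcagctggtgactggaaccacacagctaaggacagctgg

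On the log2 scale, Apol7c measured 6.37 (an intensity of 82.5) with fucose and 3.54 (11.7) without. The median of all probe sets was 2.81 on the on-fucose array and 2.82 on the off-fucose array, so Apol7c lay well above the middle of the first array and nearer to it on the second. The difference, off fucose minus on fucose, was -2.82 on the log2 scale, which is 7.08-fold lower off fucose. The expression filter was set at the median over genes of the mean log2 intensity (2.88). Among the 11090 genes that passed it, only 1 had a more negative difference, Xist (-5.44). Xist is expressed from the inactive X chromosome of females, and the labels used here give no sex. With 1 array per group there is no replicate error, and no p-value can be given. To give a sense of scale, genes of about the same intensity as Apol7c had a robust SD of 0.32 in their differences. This value lay between 0.18 and 0.38 over the intensity range of the genes past the filter and was not computed below it.

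Apol7e had 7.18 (intensity 145) on fucose and 6.17 (72.2) off fucose. Its difference was -1.01, which is 2.01-fold lower. It was the member just past the 2-fold limit, and its difference was between -0.96 and -0.62 after quantile normalisation, median centring, loess or centring on T cell genes. Apol7b had 4.35 (20.3) on fucose and 4.28 (19.5) without it. Its difference of -0.06 turned to 0.02 with loess and 0.33 with T cell centring. The gene copies of the Apol7 group thus had large, smaller and near-zero differences. The robust SD of like genes was 0.26 for Apol7e and 0.35 for Apol7b. Whether probes of one Apol7 copy also bind RNA of another was not tested.

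Apol11b had 2.31 (4.96) on fucose and 3.66 (12.7) without it, which is 1.35 on the log2 scale or 2.55-fold higher off fucose. On fucose it lay in the lowest 6.97% of all probe sets, so it passed the filter only through its off-fucose value, and its difference was 0.45 with 16 added to each intensity before log2. Apol8 had 4.23 (18.8) and 4.67 (25.5), a difference of 0.44. Apol9a, which encodes an interferon-inducible lipid-binding protein, had 3.23 (9.36) and 3.65 (12.5), a difference of 0.42. Both differences are within 2-fold, at little above the robust SD of like genes, 0.31 for Apol8 and 0.36 for Apol9a.

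The remaining 4 members did not pass the filter. Apol9b, the close relative of Apol9a, had 2.69 on fucose and 2.51 off fucose. Apol6, the mouse relative of human APOL6, had 2.51 and 2.62, Apol7a had 2.55 and 2.71, and Apol10b had 2.52 and 2.47. All these values lay below the median of their array, so the differences, from -0.18 in Apol9b to 0.17 in Apol7a, come from the range where small intensities compress any change. The negative ones, Apol9b and Apol10b, turned to 0.21 and 0.34 with T cell centring. The platform has 3 further Apol symbols outside the list, which were also dim. Apol10a had 2.33 and 2.79, Apol11a had 2.18 and 2.49, and Apol7d had 2.40 on both arrays.

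**Figure D1:**
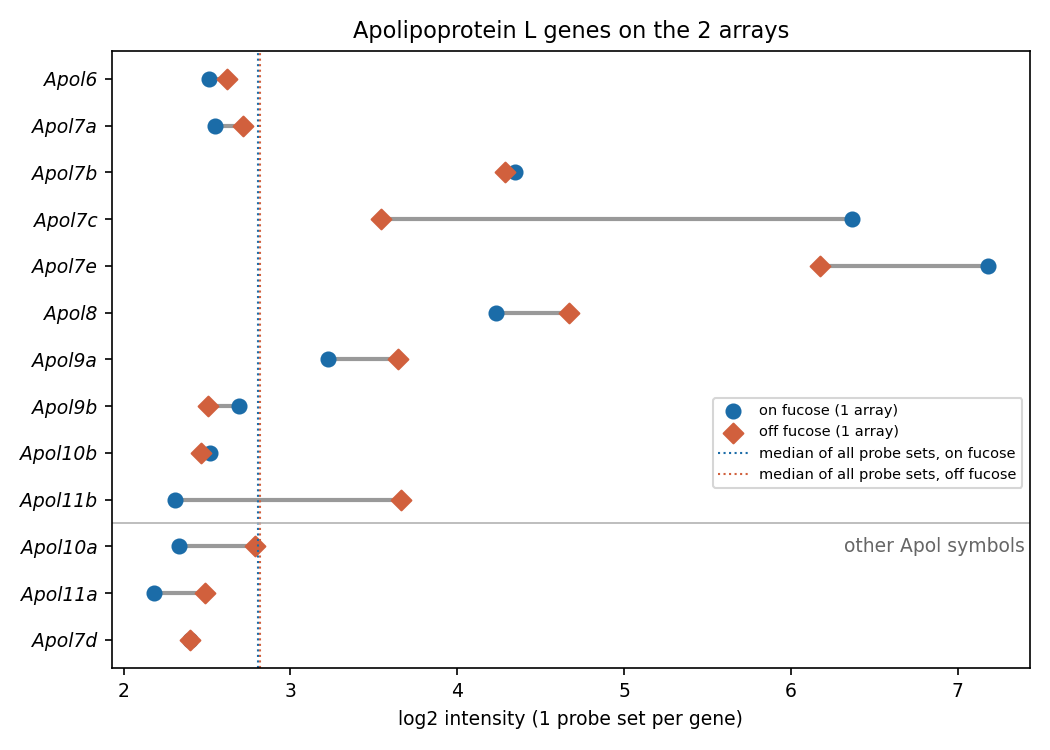
Log2 intensity of each Apol gene on the on-fucose array (circles) and the off-fucose array (diamonds), joined by a line, with dotted lines at the median of all probe sets of each array. Apol7c runs from 6.37 down to 3.54 and Apol7e from 7.18 down to 6.17, Apol11b runs from 2.31 up to 3.66, and Apol6, Apol7a, Apol9b and Apol10b lie left of the medians on both arrays. Each point is 1 array, so there are no error bars, and positions of different genes compare different probe sets.

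Of the 6 members past the filter, 2 were at least 2-fold lower off fucose (Apol7c and Apol7e), 1 was at least 2-fold higher (Apol11b) and 3 were within 2-fold. Among all genes past the filter, 0.514% were lower by this measure, 2.37% were higher and 2.89% were apart in either direction. These shares are given beside the members only as background, since the members were picked with these values known. After centring on the T cell markers, 17 genes were lower and 602 higher, against 57 and 263 without, because that centring adds 0.39 to every difference.

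**Figure D2:**
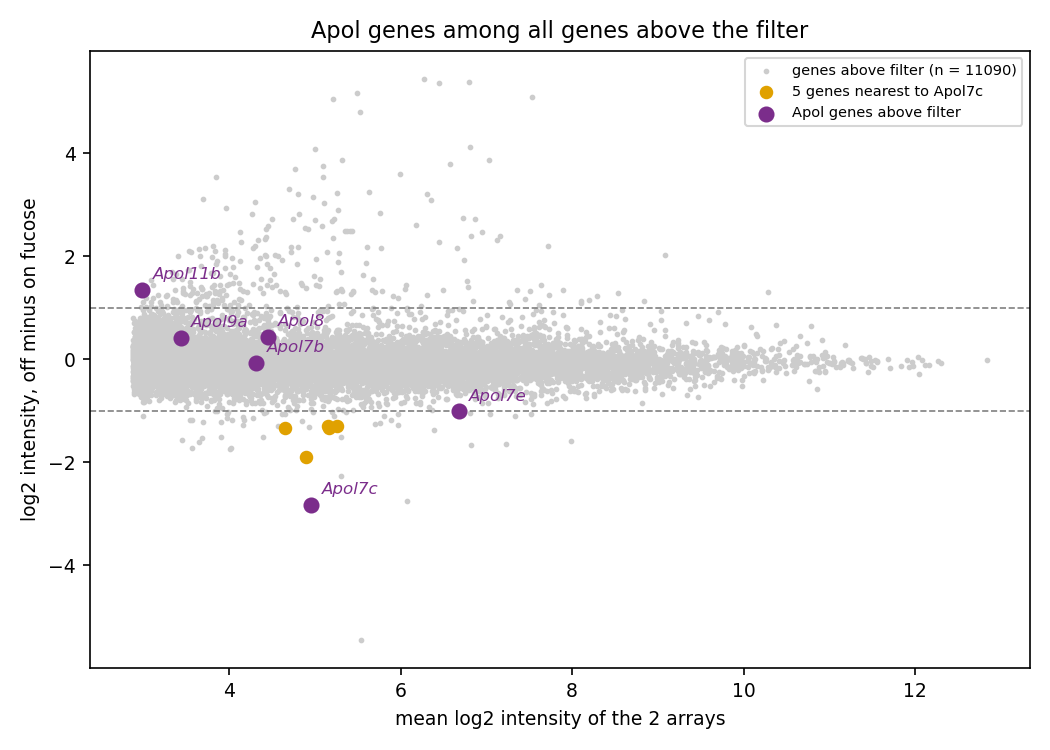
Difference in log2 intensity (off minus on fucose) against the mean log2 intensity of both arrays, for the 11090 genes past the filter (grey), the Apol genes among them (purple) and the 5 genes nearest to Apol7c (yellow), with dashed lines at 2-fold. Apol7c lies at -2.82, below nearly all grey points, Apol7e lies on the 2-fold line, and Apol7b, Apol8 and Apol9a lie inside the grey cloud.

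The genes whose values were most like those of Apol7c were found by the Euclidean distance between the pairs of log2 intensities, over 10185 named genes and only 2 arrays. Pfkfb3, which encodes a regulator of glycolysis, was nearest at a distance of 0.66, with 5.84 on fucose and 3.95 off fucose. Of these genes it was the only one within a distance of 1, whereas the median distance was 3.0. Next came Dcp2, an mRNA decapping enzyme (5.84 and 4.51), the granzyme gene Gzmm (5.80 and 4.50), the XK-related gene Xkrx (5.32 and 4.0) and Ifi214, of an interferon-activated gene family (5.90 and 4.61). These 4 lay at distances from 1.10 to 1.16 and had differences from -1.33 to -1.30. With ranks within each array in place of log2 values, 2 of the 5 were again among the nearest 5. The likeness rests on a single pair of values per gene.

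The protein-coding neighbours on chromosome 15 had differences within 2-fold, as most genes past the filter did. In the RefSeq gene order, the members lie in a run with Apol10a and Apol11a that is broken by Rbfox2 between Apol6 and Apol7a. Of 11 protein-coding neighbours, which are Rbfox2 and the 5 nearest genes on each side of the run, 9 passed the filter. Of these 9, 0 were 2-fold apart, against 2.89% of all genes past the filter, so the 0 says little. Their differences ran from -0.31 in Commd5 to 0.27 in Rbfox2, with a median of 0.02. Myh9, which encodes a non-muscle myosin heavy chain and follows Apol8, had 9.89 and 9.84. Mb, the myoglobin gene before Apol6, had 2.89 on both arrays. Within the run, genes next to each other differed widely. Apol11a, the Apol gene just before Apol7c, had a difference of 0.31 at dim values, and Apol10b, the Apol gene just after it, had -0.05. The long non-coding RNA gene 1700025B11Rik between Apol7c and Apol10b was dim, at 2.47 and 2.60.

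Gm8221, which RefSeq lists as a pseudogene, lies between Apol10b and Apol11b and was named after its value was seen. It had 4.43 (intensity 21.5) on fucose and 2.70 (6.5) off fucose. The difference of -1.73, or 3.31-fold lower, was the 8th most negative among genes past the filter. Its neighbour Apol11b differed the other way, by 1.35. The off-fucose value of Gm8221 lies below the array median, so the size of its fold is uncertain.

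**Figure D3:**
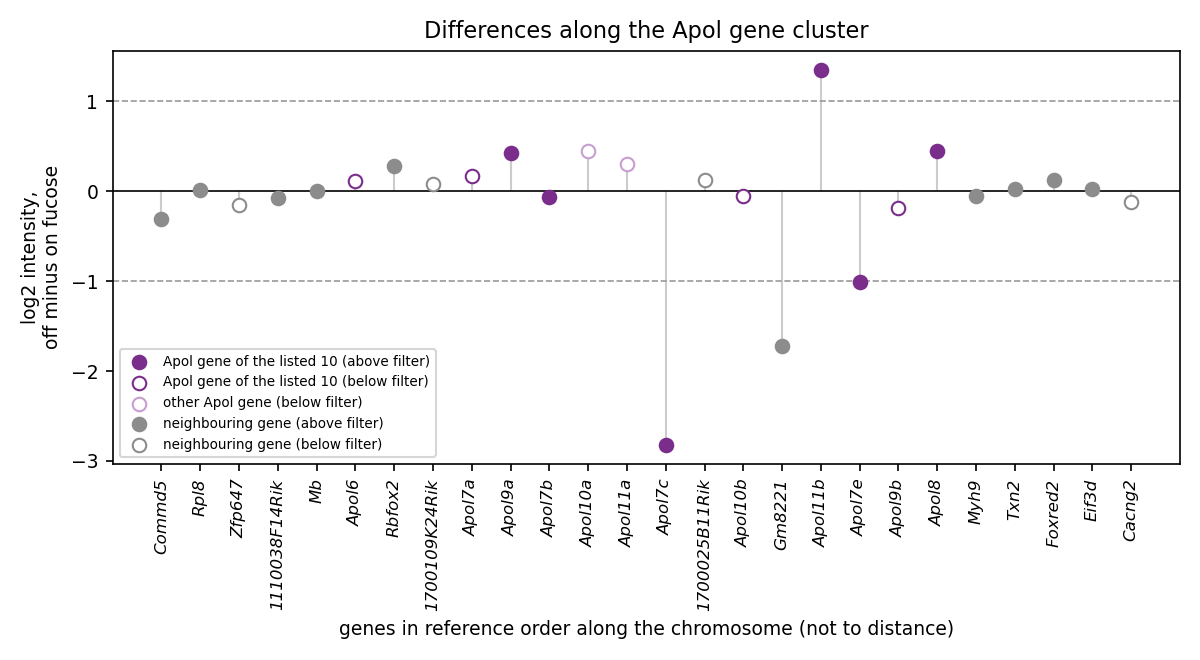
Difference in log2 intensity (off minus on fucose) for each measured gene in its order along chromosome 15, not drawn to distance, with listed Apol genes in purple, other Apol genes in light purple and other genes in grey, open where they did not pass the filter, and dashed lines at 2-fold. Apol7c (-2.82), Gm8221 (-1.73) and Apol7e (-1.01) point down and Apol11b (1.35) points up, whereas the flanking genes from Commd5 to Mb and from Myh9 to Cacng2 stay between -0.31 and 0.13.

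Among pairs of Apol genes with nearly the same start region, only Apol9a and Apol9b had differences of opposite sign. The sizes of the differences were unlike within some pairs, and the small difference of Apol7b changed sign with loess and with T cell centring. The 11 windows gave 55 pairs, aligned end to end, of which 7 shared at least 75% of the 300 bases and the other 48 shared 48.7% to 61.0%. Apol7b and Apol7e shared 293 bases, with 2 differing bases and 5 bases in each window left unpaired. Their differences were -0.06 and -1.01. Apol7c shared 242 bases with Apol7e, which was also lower off fucose, and 238 with Apol7b. Apol11a and Apol11b shared 298 bases, and had positive differences of 0.31, at dim values, and 1.35. Apol10a shared 266 and 268 bases with them and had 0.45, also at dim values. Apol9a and Apol9b were identical over the 278 bases that could be paired, with differences of 0.42 and -0.18, and Apol9b was dim.

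**Figure D4:**
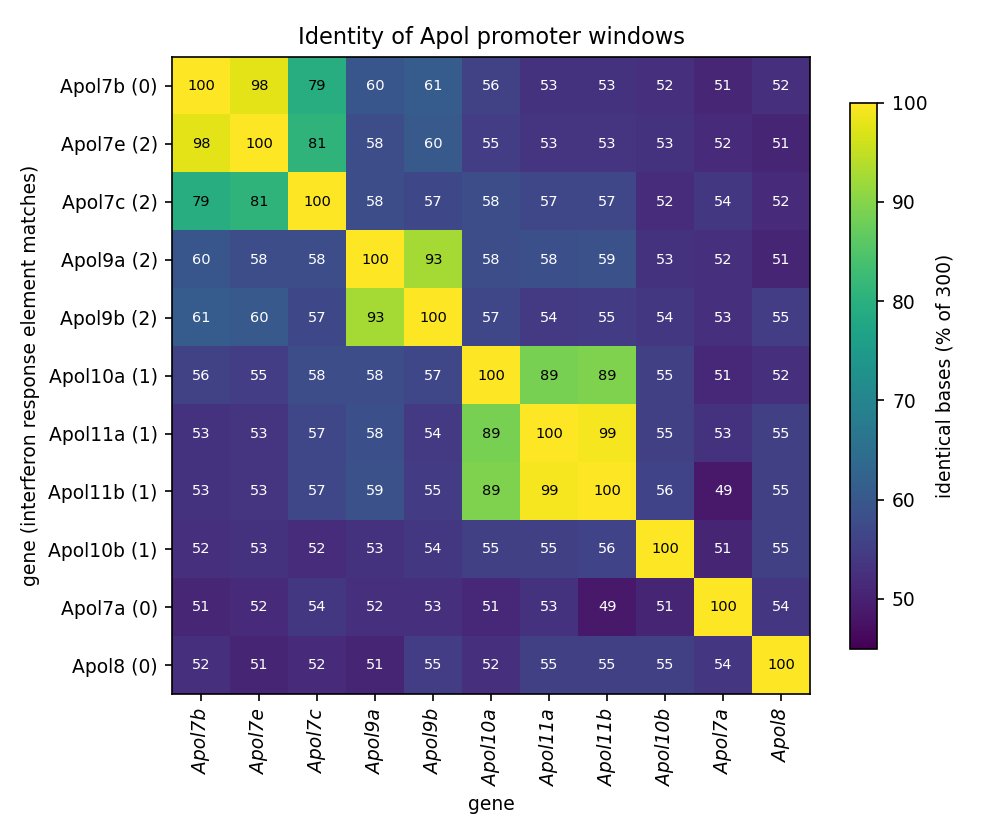
Identical bases, in percent of 300, for each pair of Apol start windows, from dark (few) to yellow (all), with the number of ISRE core matches in brackets after each gene name. Apol7b, Apol7e and Apol7c form one block (79% to 98%), Apol9a and Apol9b another (93%), and Apol10a, Apol11a and Apol11b one more (89% to 99%), whereas Apol10b, Apol7a and Apol8 stand alone.

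The ISRE core was found in 6 of the 9 members with a window, Apol7c, Apol7e, Apol9a, Apol9b, Apol10b and Apol11b, and in 3.43% of all 32817 RefSeq windows of this length. Some of these members have start windows that are close copies, such as Apol9a and Apol9b, so the 6 are not separate cases. Apol7c, Apol7e, Apol9a and Apol9b had 2 overlapping matches each, and Apol10b and Apol11b had 1. Apol7a, Apol7b and Apol8 had none. The stretch that holds the matches is shown for Apol7c and Apol7e beside the same stretch of Apol7b, and for Apol9a, Apol10b and Apol11b, since the Apol7 copies differ here and the other 3 carry the core without being 2-fold lower off fucose. The capitals start 55 bases before the gene start in Apol7c, 36 in Apol7e, 59 in Apol9a, 4 in Apol10b and 50 in Apol11b.
Apol7c: gaaatggggcTTTCTCTTTCCTTTTCtgct
Apol7e: accttggggcTTTCTCTTTCGTTTTCtgct
Apol7b: accttggggctttctcttttctgct
Apol9a: gaggtgagacTTTCAGTTTCCATTTCccag
Apol10b: gaaattttacTTTCATTTTCgtgcactgag
Apol11b: gaatttttacTTTCACTTTCatgcactggg

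Apol7b, whose stretch is 25 bases against 30 in Apol7e, had no match here and a difference of -0.06. Apol9a, with 2 matches, had a difference of 0.42. Apol11b, with 1 match, had 1.35 and was dim on fucose. Since the family was picked on the difference of Apol7c, nothing is read from which members carry the core. A match is a run of letters and shows no binding. The STAT site TTCNNNGAA was found in 1 member, Apol11b, and in 8.29% of all windows. A joint ETS and IRF site (GGAA and GAAA with any 2 bases between them) was in 0 members and 2.72% of windows, and one exact NF-kappaB site (GGGAC directly before TTTCC) in 0 members and 0.155%.

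Most genes of the interferon-gamma-inducible list had lower values off fucose, mostly by less than 2-fold. Of its 22 genes, 15 passed the filter, of which 13 were lower and 2 higher. The related lists were drawn up with earlier results of these data known, so the shares of all genes are given only as background. At least 2-fold lower were 3 of the 15, against 0.514% of all genes, and 12 were within 2-fold. The count was 1 with T cell centring, where Gbp9 was left, and 1 with 16 added to each intensity. The higher genes were Ciita (0.37) and Gbp3 (0.34), named after their values were seen. The median difference was -0.59, against -0.05 over all genes past the filter, of which 56.5% were lower. The guanylate-binding protein gene Gbp9 had 7.65 and 5.99, a difference of -1.66. The immunity-related GTPase genes Irgm2, Iigp1 and Igtp, which act against pathogens inside vacuoles, had -1.25, -1.12 and -0.85. Of the type I interferon-stimulated list, 23 of 31 genes passed the filter and 19 were lower, with a median of -0.44. Of these 23, 0 were 2-fold apart either way, against 2.89% of all genes past the filter. Rtp4 had -0.75, the transcription factor gene Stat2 -0.74, the RNA sensor gene Ddx58 -0.73 and the antiviral synthetase gene Oas3 -0.70. Centring on T cell genes brought the medians of these lists to -0.20 and -0.05, and all genes to 0.35.

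The dendritic cell maturation list was mixed, with 14 of its 22 genes past the filter lower, 7 higher and 1 equal. Of all genes past the filter, 56.5% were lower. The list median of -0.21 turned to 0.18 with T cell centring. At least 2-fold lower was 1 gene (Fscn1) and at least 2-fold higher was 1 (Fabp5), against 0.514% and 2.37% of all genes. Fscn1, which encodes the actin bundler fascin of mature dendritic cells, had 4.66 and 3.15, a difference of -1.51. Fabp5, a fatty acid-binding protein gene, had 1.06, Cd200 -0.84 and Cd274, which encodes PD-L1, -0.81. With 16 added to each intensity, 0 genes of this list were 2-fold lower and 0 were 2-fold higher. With the mean of all probe sets, 0 were 2-fold higher. Ccr7, the receptor that guides mature dendritic cells to lymph nodes, had 9.30 and 9.12.

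The Apol7c product is known to act in antigen export and cross-presentation. All 21 measured genes of this list passed the filter, with a median of 0.0042. At least 2-fold lower were 0 of them, against 0.514% of all genes, and at least 2-fold higher were 3, against 2.37%. These were Cybb, the catalytic subunit of the phagocyte oxidase (2.54), Wdfy4, which cDC1 need for cross-presentation (1.56), and Mpeg1, which encodes the phagosomal pore protein perforin-2 (1.35). The lysosomal thiol reductase gene Ifi30 had 0.70. Other genes of membrane pores and rupture had a median of 0.10 over 7 genes. Beside Mpeg1, they held the perforin gene Prf1 at -0.65, Mlkl, the executioner of necroptosis, at 0.62, and the mitochondrial pore gene Bak1 at 0.38. The other apolipoproteins, which mostly carry lipid in plasma, had a median of -0.02 over 8 of 18 genes. Of these 8, 0 were 2-fold apart, against 2.89% of all genes past the filter. Apoo had -0.43, Clu 0.29, Apoe 0.12 and Apoa2 -0.10.

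**Figure D5:**
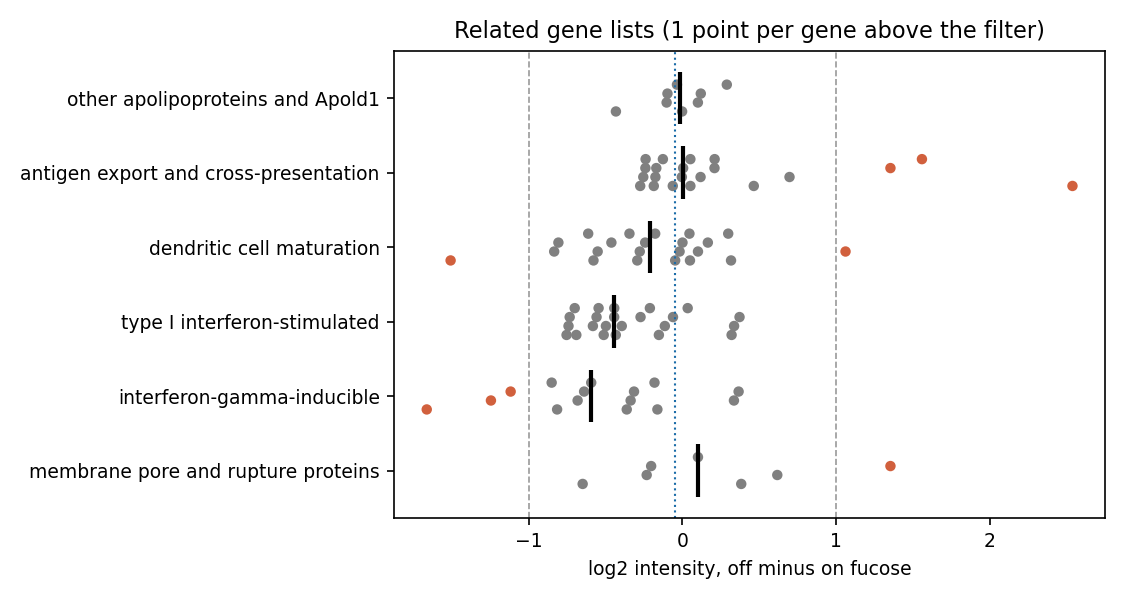
Difference in log2 intensity (off minus on fucose) for each gene past the filter in 6 related gene lists, 1 point per gene, with a black bar at the list's median, orange points at least 2-fold apart, dashed lines at 2-fold and a dotted line at the median of all genes (-0.05). The interferon-gamma-inducible list has its median at -0.59 and 3 orange points on the left, and the antigen export list has 3 on the right. With T cell centring every point would lie 0.39 further right.

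Markers of cell types also differed between the arrays. Per the labels' protocols, beads removed spleen cells with B220 or CD11b, and cells with CD11c were then kept, and the labels call them cDC1, conventional type 1 dendritic cells. T cell genes were bright all the same, as all 9 measured markers passed the filter with a median log2 intensity of 9.79 with fucose and 9.29 without, and the defining marker Xcr1 of cDC1 was near the array median at 2.90 and 3.43. All 9 T cell markers were lower off fucose, as were 56.5% of all genes past the filter. Their summed intensity was 10298 on fucose and 8243 off fucose. All 13 measured cDC1 markers were higher, in the opposite direction to Apol7c, with a summed intensity of 351 and 897. Of these sums, Naaa gave 62.5 and 328 and Ppt1 gave 157 and 243. At least 2-fold higher were 4 of the 13 (Irf8, Naaa, Tlr3 and Wdfy4), against 2.37% of all genes past the filter. By contrast, Itgax, the CD11c gene, differed by 0.03, Zbtb46 by 0.14 and Xcr1 by 0.53. For cDC2 the sums were 62.1 and 132. For monocytes and macrophages they were 1465 and 2214, of which Ly6c2 alone gave 1388 and 1895. The median difference of this list was 1.49 over the 6 genes past the filter, with 5 higher and 1, C1qa (-0.58), lower. The lysozyme gene Lyz2 was 8.16-fold and the fibronectin gene Fn1 17.0-fold higher. For granulocytes and their precursors the sums were 110 and 2979, and for erythroid cells 79.0 and 504. For plasmacytoid dendritic cells they were 633 and 623, mostly from Bst2 (577 and 568). For NK cells they were 576 and 461, with 4 genes past the filter lower, 3 higher and a median difference of -0.40. The lower ones included Tbx21 (-0.66) and Prf1 (-0.65). The higher ones included Klrk1 (0.81) and Ncr1 (0.57), both near the array median on fucose. For B cells the sums were 76.6 and 65.9. For stromal and endothelial cells they were 408 and 348, of which Pecam1 alone gave 364 and 302. Of the latter list, 2 genes past the filter were lower and 2 higher. Xist, expressed from the inactive X chromosome of females, had 8.26 and 2.82, and the Y-linked gene Uty 2.14 and 5.26, and the labels used here give no sex. In such mixed samples fewer cells of a type and less RNA per cell cannot be told apart, and the part of cell makeup and sex in the Apol differences was not tested.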

How the data were processed

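RNA from spleen cells of 2 groups of Fx-/- mice was hybridised to 1 array each, from 9 ng of total RNA with the WT Pico chemistry, per the labels. The authors deposited 1 linear intensity per probe set and array, made with RMA per the submitters' processing notes; RMA's version and settings and the build are not given in the sources used here. Log2 was taken of each intensity. Gene names came from the platform annotation: 23521 probe sets had 1 symbol, 1814 several and 16010 were unlisted. For genes with several probe sets, the one with the highest mean was used.

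A single array per group allows no test, and the number of arrays limits the precision. The yardstick was the scaled median absolute deviation of the differences in 20 bins of intensity, among genes past the filter. The calculation was tested on simulated data. Members, lists and alternatives were chosen with earlier results of these data known. Named were the Apol genes, the 5 nearest to Apol7c (without predicted, RIKEN, small RNA and receptor segment symbols), neighbours along the chromosome, and the 4 largest differences per related list with any at least 2-fold apart; Ccr7 and Gm8221 were named after their values were seen. Start windows were aligned with Biopython 1.88, and loess used statsmodels 0.14.6. Protein sequences were not analysed here.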

Additional observations from a re-analysis of the deposited data

How the results depend on the processing

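No paired analysis was possible because there is a single array per group, which also means that none can be left out. The difference of Apol7c was negative and past 2-fold under every alternative tried, with -2.43 after T cell centring and -1.83 with 16 added to each intensity, and it moved by less than the spread of like genes after quantile normalisation, median centring and loess. The mean of all probe sets could not move any member, since each has 1. The count of members at least 2-fold lower was 1 in place of 2 after quantile normalisation, median centring, loess or T cell centring, with 16 added, and at 3-fold, each time because Apol7e no longer passed. The count at least 2-fold higher was 0 in place of 1 with 16 added, with the filter at the 67th percentile and at 3-fold. For all genes, 57 lower and 263 higher became 17 and 602 with T cell centring, 11 and 116 with 16 added, 473 and 640 at 1.5-fold, and 12 and 118 at 3-fold. The median of the maturation list reversed to 0.18 with T cell centring. Centring subtracts 1 value from every difference, adding to an intensity shrinks the differences of dim genes, and at higher limits fewer genes can pass. For quantile normalisation and loess the cause was not tested. Shared probe sets changed no count, since no member lies on one. Low signal over background limits the dim members, and with 1 array per group nothing here has a replicate check.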

Other observations

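An ISRE core near the start was counted in all genes past the filter, as a description. The start windows of 8757 genes past the filter were matched by symbol, and 274 held the core. Their median difference was -0.04, against -0.05 over all 8757. At least 2-fold lower were 5 of the 274 (1.82%), Apol7c, Apol7e, Ifi214, Irgm2 and Gm12250, against 0.468% of all. At least 2-fold higher were 13 (4.74%), against 2.31% of all. Among these were Apol11b, the antiviral membrane protein genes Ifitm2 (14.6-fold) and Ifitm3 (9.20-fold), Ifi205 (7.06-fold) and the oxidase gene Cybb (5.81-fold). Without the Apol genes, 3 of 270 (1.11%) were at least 2-fold lower and 12 (4.44%) at least 2-fold higher, against 0.446% and 2.30% of the other 8750 genes. These counts were made after the values of the Apol genes had been seen.

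The joint ETS and IRF site stood in the windows of 217 genes, with a median difference of -0.12. At least 2-fold lower were 6 of them (2.76%), 2010016I18Rik, Gzmm, Irgm2, Zfp688, Gopc and Mical1, and 5 (2.30%) were at least 2-fold higher. The STAT site stood in 601 windows, with a median of -0.05. At least 2-fold lower were 5 of these genes (0.832%) and at least 2-fold higher 13 (2.16%). Beside both motifs, the shares over all 8757 genes were 0.468% lower and 2.31% higher.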
